A study of Homo sapiens with 4 samples.

Results

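The unfolded protein response genes described here are 10 genes chosen by name from the count table: the sensors EIF2AK3, ERN1 and ATF6, the transcription factor XBP1, the degradation genes HERPUD1, SEL1L and EDEM1, and the folding genes SDF2L1, PDIA4 and CALR. All 10 were among the 27452 genes of the table and among the 15199 genes with enough reads to be tested. They were measured by RNA-seq in cells labelled HepG2, an established human liver cancer line, carrying either STAT3 shRNA (2 libraries) or Ctrl shRNA (2 libraries). STAT3 is a transcription factor activated by cytokine receptors, and an shRNA is a short hairpin RNA that lowers the level of its target mRNA. All cells were grown in DMEM with serum and antibiotics, and the labels name no agent that causes stress in the endoplasmic reticulum (ER). The labels give neither the hairpin sequences nor whether the libraries came from separate cultures or clones, so p-values measure the spread between these libraries only, which may be technical.

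The unfolded protein response is how a cell answers misfolded protein in the ER. PERK (encoded by EIF2AK3) slows translation and raises ATF4, IRE1 (ERN1) splices the XBP1 mRNA so that it encodes an active transcription factor, and ATF6 is cut in the Golgi to release another. These factors raise the genes of chaperones and of ER-associated degradation (ERAD), which returns misfolded proteins to the cytosol for the proteasome. Hepatocytes, which secrete large amounts of plasma protein, depend on this system.

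ATF6 and XBP1 act through short promoter elements, named ERSE (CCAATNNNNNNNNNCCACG) and ERSE-II (ATTGGNCCACG), and the promoters of the 4 genes that hold a match are shown because HERPUD1 rose and SDF2L1 fell with the same element. Each window runs from 250 bases before to 50 bases after the gene start, written 5′ to 3′ on the gene's strand from RefSeq (GRCh38.p14), with the match in capitals.
HERPUD1 (ERSE-II, chr16:56931892-56932191, plus strand): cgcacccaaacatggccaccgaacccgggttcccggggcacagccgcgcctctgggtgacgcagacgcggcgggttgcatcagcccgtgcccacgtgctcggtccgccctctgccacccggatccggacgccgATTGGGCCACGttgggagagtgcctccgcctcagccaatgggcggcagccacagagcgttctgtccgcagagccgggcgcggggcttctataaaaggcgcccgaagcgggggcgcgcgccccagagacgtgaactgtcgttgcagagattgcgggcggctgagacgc
SDF2L1 (ERSE-II in reverse, chr22:21642052-21642351, plus strand): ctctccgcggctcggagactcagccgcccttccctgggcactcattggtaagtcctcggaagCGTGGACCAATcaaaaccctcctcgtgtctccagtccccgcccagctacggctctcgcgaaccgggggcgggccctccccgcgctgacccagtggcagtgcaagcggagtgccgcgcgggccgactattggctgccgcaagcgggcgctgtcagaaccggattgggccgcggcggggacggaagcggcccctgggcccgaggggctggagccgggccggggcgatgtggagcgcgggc
XBP1 (ERSE, chr22:28800520-28800819, minus strand): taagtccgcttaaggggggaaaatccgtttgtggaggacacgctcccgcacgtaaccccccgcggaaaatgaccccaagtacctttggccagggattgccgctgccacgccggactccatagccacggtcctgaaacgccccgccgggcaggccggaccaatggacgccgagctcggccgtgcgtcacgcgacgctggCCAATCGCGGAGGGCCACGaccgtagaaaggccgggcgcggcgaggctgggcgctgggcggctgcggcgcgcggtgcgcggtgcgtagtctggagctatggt
CALR (ERSE in reverse, chr19:12938359-12938658, plus strand): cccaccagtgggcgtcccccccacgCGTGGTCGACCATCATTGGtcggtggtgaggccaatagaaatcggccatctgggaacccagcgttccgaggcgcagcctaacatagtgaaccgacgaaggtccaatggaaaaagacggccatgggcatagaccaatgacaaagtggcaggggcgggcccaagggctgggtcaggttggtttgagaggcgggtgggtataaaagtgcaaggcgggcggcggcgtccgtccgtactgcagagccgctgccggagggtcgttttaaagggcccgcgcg

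The ERSE match lay at -52 to -34 from the XBP1 start and, in reverse, at -225 to -207 from the CALR start. The ERSE-II match lay at -117 to -107 from the HERPUD1 start and, in reverse, at -188 to -178 from the SDF2L1 start. Both strands were searched in the 12 windows that the table gives for the 10 genes. Among 35116 windows of the same length for all genes, 27 held ERSE (0.0769%) and 19 held ERSE-II (0.0541%). The core of the element bound by spliced XBP1, the UPRE (TGACGTGG), was in none of the 12 windows and in 0.729% of all windows. The STAT site TTCNNNGAA was also in none of the 12, and in 7.66% of all. A match is a run of letters, and its absence says only that these letters are not in the window.

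The targeted gene was measured first. STAT3 had 34.7 and 36.1 CPM (read counts scaled to library size with TMM factors) in STAT3 shRNA libraries, against 245.0 and 244.3 CPM in Ctrl shRNA libraries, 6.91-fold lower with STAT3 shRNA (adjusted p = 3.28e-07). Total counts per library were between 17694642 and 25862027. At these depths 3 reads equal 0.113 to 0.163 CPM. Of the markers of hepatocytes, ALB and APOA1 had at most 3 reads in any library and APOA2 had 0 in all, although HepG2 is known for secreting albumin and apolipoproteins. The markers APOB, TTR, AFP, SERPINA1 and FGB were looked for by name and not found among the measured genes. These marker levels do not bear out the label HepG2, and the identity of the cells was not tested. The 5 hepatocyte markers in the table summed to 8.14 and 5.65 CPM in STAT3 shRNA libraries and to 3.29 and 3.92 CPM in Ctrl shRNA libraries. Most of it came from HNF4A, which rose (log2 fold change 1.997, adjusted p = 0.00131), and TF, which fell (-1.59, adjusted p = 0.0236). TF had only 24 and 8 reads in STAT3 shRNA libraries and 38 and 41 reads in Ctrl shRNA libraries, and did not pass in the deposited FPKM (adjusted p = 0.579). The 4 leukocyte markers in the table summed to 24.5 and 28.2 CPM with STAT3 shRNA, against 11.2 and 14.8 CPM with Ctrl shRNA, nearly all from CD68. The 5 fibroblast markers summed to 35.6 and 35.5 CPM with STAT3 shRNA, against 52.8 and 60.7 CPM with Ctrl shRNA. Among them COL1A1 fell (log2 fold change -1.47, adjusted p = 5e-05) and DCN rose (0.46, adjusted p = 0.0329). DCN did not pass after a correction for GC content per library (0.25, adjusted p = 0.207) or in the deposited FPKM (adjusted p = 0.058). The 3 endothelial markers summed to 1.28 and 1.74 CPM with STAT3 shRNA, against 1.75 and 1.20 CPM with Ctrl shRNA. The part of these levels in the results below was not tested, and in bulk RNA fewer cells of a type and less RNA per cell cannot be told apart.

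With STAT3 shRNA, 5 of the 10 genes rose (HERPUD1, EIF2AK3, ERN1, ATF6 and SEL1L) in counts, 1 fell (SDF2L1) and 4 did not pass the test (XBP1, EDEM1, PDIA4 and CALR). The 5 include all 3 sensors, but of these EIF2AK3 alone passed in every alternative fit: the calls of ERN1, ATF6 and SEL1L were lost on the FPKM scale, where SEL1L was lower, and without the second STAT3 shRNA library. Those of ATF6 and SEL1L were also lost after the GC correction and without the first STAT3 shRNA library. The threshold was an adjusted p of 0.05 over all tested genes, which 35.5% of tested genes passed, 16.8% higher and 18.7% lower with STAT3 shRNA. No change reached 2-fold: log2 fold changes were between -0.70 and 0.73, with a median of 0.33 against 0.02 over all tested genes. Without the second STAT3 shRNA library 3 of the 10 genes passed, beside 16.2% of the genes tested in that fit. The deposited FPKM, which are scaled for transcript length as well as depth, called 3 of the 10, where 16.7% of all tested genes were called. In log2(FPKM + 1) the median log2 fold change of the 10 genes was 0.23, against 0.06 over all tested genes. The 10 genes were chosen with earlier results of these data known, so these medians are a description.

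**Figure D1:**
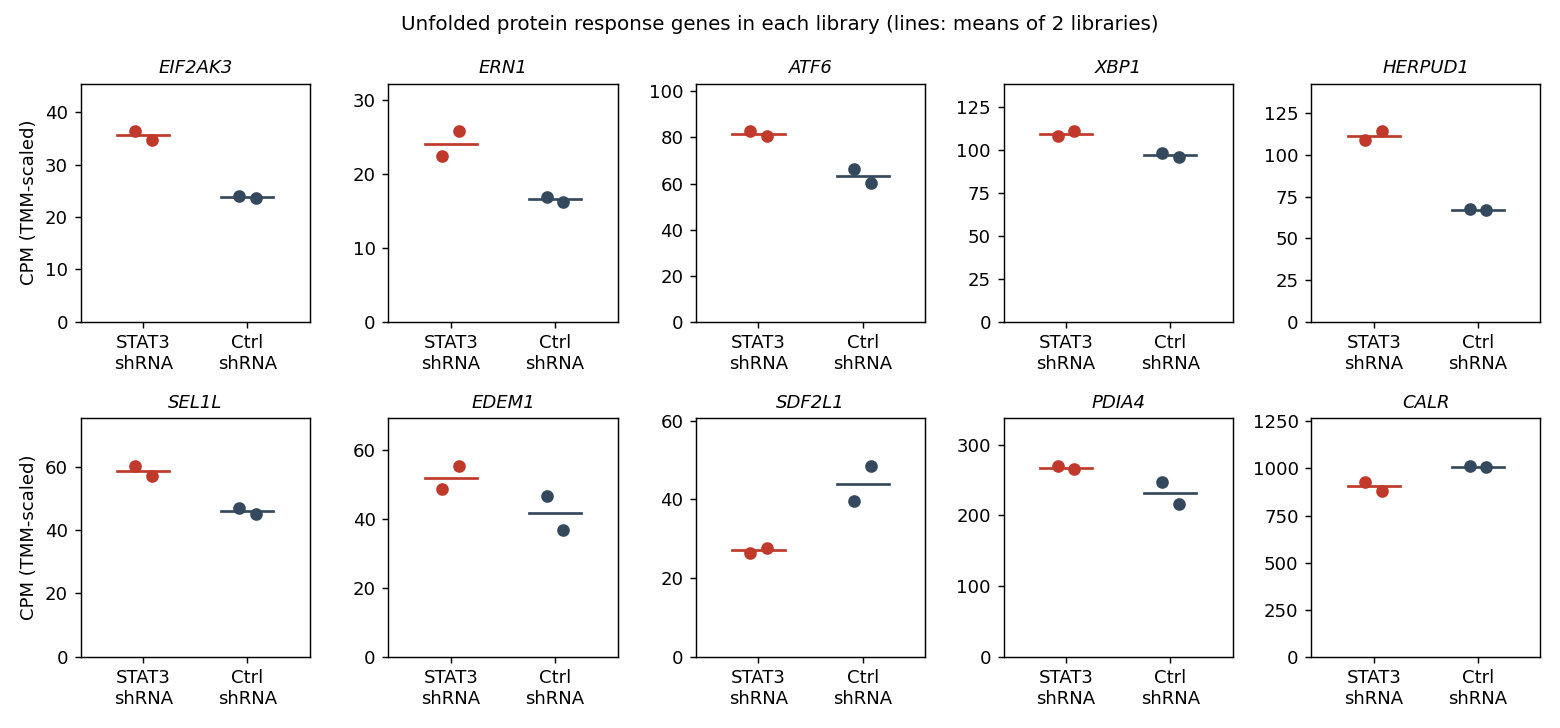
Level of each of the 10 genes in CPM (y axis, from 0, with its own scale per gene) in the STAT3 shRNA and Ctrl shRNA libraries (x axis); each point is a library and each line the mean of 2. The points of the groups do not overlap in any panel, with 8 genes higher and SDF2L1 and CALR lower with STAT3 shRNA.

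The libraries of the groups did not overlap for any of the 10 genes on the CPM scale, a pattern that 70.8% of tested genes showed. The plot of CPM by library shows both points of each group close together for most genes, with the widest spread, relative to the mean, for the Ctrl shRNA libraries of EDEM1 and SDF2L1.

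EIF2AK3 (ENSG00000172071.12, chr2:88556741-88627576, minus strand, with positions here and for the other genes from GENCODE 29 on GRCh38) encodes PERK, the ER membrane kinase that phosphorylates the translation factor eIF2α. Its level was 36.4 and 34.8 CPM in STAT3 shRNA libraries, against 23.9 and 23.5 CPM in Ctrl shRNA libraries. Both libraries of each group lay within a few CPM of each other and the groups were well apart. The means were 35.6 ± 1.11 CPM with STAT3 shRNA and 23.7 ± 0.274 CPM with Ctrl shRNA (SD, n = 2 each), 1.5-fold higher with STAT3 shRNA (log2 fold change 0.58 ± 0.10 SE, adjusted p = 0.00238). The gene passed under all 15 alternative fits, with log2 fold changes between 0.46 and 0.93 and adjusted p of at most 0.0389. An antisense transcript that overlaps it, EIF2AK3-DT, held 4.06% as many reads, and whether the counting used strand is not given in the sources used here. The 50 tested genes nearest to it had a median log2 fold change of -0.01, with 3 higher and 4 lower. Around the other 9 genes these medians were between -0.14 and 0.11.

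ERN1 (ENSG00000178607.16, chr17:64039142-64130819, minus strand) encodes IRE1, the kinase and endoribonuclease that starts XBP1 splicing. It had 22.4 and 25.8 CPM in STAT3 shRNA libraries and 16.9 and 16.2 CPM in Ctrl shRNA libraries. Both STAT3 shRNA libraries were above both Ctrl shRNA libraries. It was 1.45-fold higher with STAT3 shRNA (log2 fold change 0.54 ± 0.12 SE, adjusted p = 0.00911). The call was lost without the second STAT3 shRNA library (log2 fold change 0.44, adjusted p = 0.127). It was also lost on the FPKM scale, with 4.89 and 6.72 FPKM in STAT3 shRNA libraries and 3.98 and 5.17 FPKM in Ctrl shRNA libraries, where the groups overlapped (adjusted p = 0.374).

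ATF6 (ENSG00000118217.6, chr1:161766294-161964070, plus strand) encodes the membrane-bound transcription factor that moves to the Golgi under stress. It had 82.7 and 80.7 CPM with STAT3 shRNA, against 66.2 and 60.3 CPM with Ctrl shRNA. The lowest STAT3 shRNA library was above the highest Ctrl shRNA library. It was 1.29-fold higher (log2 fold change 0.37 ± 0.09 SE, adjusted p = 0.0124). The call held in 9 of 15 alternative fits. It was lost with either STAT3 shRNA library left out (adjusted p = 0.151 without the first and 0.111 without the second), on the FPKM scale (0.081), and after a correction for GC content per library (log2 fold change 0.19, adjusted p = 0.0593). Log2 fold changes moved with transcript GC content over 14545 genes (Spearman rho -0.339, a description), and the longest ATF6 transcript is 41.3% GC, against a median of 48.7% over tested genes.

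XBP1 (ENSG00000100219.16, chr22:28794555-28800597, minus strand), the transcription factor whose mRNA IRE1 splices, had 108.4 and 111.1 CPM in STAT3 shRNA libraries and 98.6 and 96.2 CPM in Ctrl shRNA libraries. The groups were apart, but the difference did not pass the test (log2 fold change 0.17, 95% interval -0.01 to 0.35, adjusted p = 0.128). After the GC correction the log2 fold change was -0.01 (adjusted p = 0.926); its longest transcript is 41.5% GC. The table counts all XBP1 transcripts as 1 gene, so spliced and unspliced forms were not measured.

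HERPUD1 (ENSG00000051108.15, chr16:56932048-56944863, plus strand) encodes an ER membrane protein that helps bring the ERAD ubiquitin ligase together with its substrates. Its level was 109.1 and 114.2 CPM in STAT3 shRNA libraries, against 67.6 and 67.0 CPM in Ctrl shRNA libraries. The libraries of each group were close together and the groups far apart. The means were 111.6 ± 3.67 CPM with STAT3 shRNA and 67.3 ± 0.448 CPM with Ctrl shRNA (SD, n = 2 each), 1.66-fold higher with STAT3 shRNA (log2 fold change 0.73 ± 0.08 SE, adjusted p = 0.000342). On the FPKM scale it had 90.9 and 86.7 with STAT3 shRNA and 55.3 and 60.5 with Ctrl shRNA (adjusted p = 0.0169). It passed under all 15 alternative fits, with log2 fold changes between 0.61 and 0.78.

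SEL1L (ENSG00000071537.14, chr14:81471549-81533861, minus strand), the adaptor of the HRD1 ubiquitin ligase, had 60.4 and 57.4 CPM with STAT3 shRNA, against 47.0 and 45.2 CPM with Ctrl shRNA. In counts the STAT3 shRNA libraries were the higher ones (log2 fold change 0.35 ± 0.09 SE, 1.28-fold, adjusted p = 0.0153). In FPKM they were the lower ones, with 9.04 and 8.23 FPKM with STAT3 shRNA, against 9.89 and 9.75 FPKM with Ctrl shRNA (log2 fold change of FPKM + 1 of -0.17, adjusted p = 0.391). The call was lost without the first STAT3 shRNA library (adjusted p = 0.216), without the second (0.126) and after the GC correction (log2 fold change 0.15, adjusted p = 0.173), its longest transcript being 39.4% GC.

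EDEM1 (ENSG00000134109.11, chr3:5187646-5219957, plus strand), a lectin-like protein that helps pick misfolded glycoproteins for degradation, had 48.6 and 55.3 CPM in STAT3 shRNA libraries and 46.7 and 36.8 CPM in Ctrl shRNA libraries. The nearest libraries of the groups lay closer to each other than the Ctrl shRNA libraries did. Its log2 fold change of 0.31 (95% interval 0.02 to 0.61) did not pass (adjusted p = 0.0887). It passed in 2 of 15 alternative fits, with no low-count filter (adjusted p = 0.0269) and without the first Ctrl shRNA library (log2 fold change 0.46, adjusted p = 0.00207). Without the second Ctrl shRNA library the log2 fold change was 0.14 (adjusted p = 0.279).

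SDF2L1 (ENSG00000128228.5, chr22:21642261-21644298, plus strand), a partner of ER DnaJ co-chaperones, was the gene that fell. It had 26.4 and 27.8 CPM in STAT3 shRNA libraries, against 39.5 and 48.5 CPM in Ctrl shRNA libraries. The STAT3 shRNA libraries were nearly equal, and both were below the lower Ctrl shRNA library. The means were 27.1 ± 0.963 CPM with STAT3 shRNA and 44.0 ± 6.37 CPM with Ctrl shRNA (SD, n = 2 each), 1.63-fold lower with STAT3 shRNA (log2 fold change -0.70 ± 0.12 SE, adjusted p = 0.00246). On the FPKM scale it had 45.9 and 49.95 with STAT3 shRNA and 67.7 and 86.9 with Ctrl shRNA (adjusted p = 0.0353). It passed under all 15 alternative fits with log2 fold changes between -0.88 and -0.33. The GC correction gave a log2 fold change of -0.33 (adjusted p = 0.0151); its longest transcript is 65.5% GC.

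PDIA4 (ENSG00000155660.11, chr7:149003062-149028641, minus strand), a disulfide isomerase of the ER, had 270.0 and 265.1 CPM with STAT3 shRNA and 246.7 and 215.5 CPM with Ctrl shRNA. Both STAT3 shRNA libraries were higher, but the first Ctrl shRNA library lay nearer to them than to the other Ctrl shRNA library. Its log2 fold change of 0.21 (95% interval 0.01 to 0.42) did not pass (adjusted p = 0.0991). It passed in 4 of 15 alternative fits, among them the GC correction (log2 fold change 0.30, adjusted p = 0.0277) and the fit without the first Ctrl shRNA library (0.28, adjusted p = 0.00407). Without the second Ctrl shRNA library it was 0.11 (adjusted p = 0.212).

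CALR (ENSG00000179218.13, chr19:12938578-12944489, plus strand) encodes calreticulin, the calcium-binding chaperone of newly made glycoproteins. It had 928.8 and 881.8 CPM in STAT3 shRNA libraries and 1013 and 1006 CPM in Ctrl shRNA libraries. Both STAT3 shRNA libraries were lower, by a small margin that did not pass the test (log2 fold change -0.16, 95% interval -0.33 to 0.02, adjusted p = 0.14). It passed in 1 of 15 alternative fits, the one without the first Ctrl shRNA library (log2 fold change -0.18, adjusted p = 0.0276). Of the 50 tested genes around CALR on chromosome 19, 18 were lower and 2 higher, with a median log2 fold change of -0.14.

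**Figure D2:**
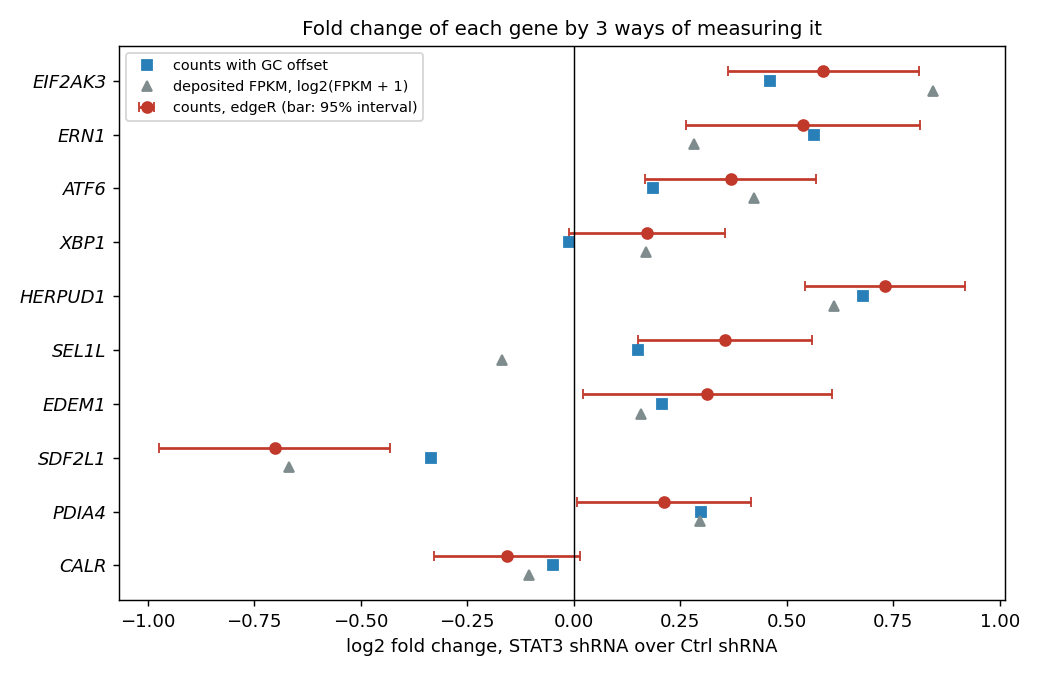
log2 fold change, STAT3 shRNA over Ctrl shRNA (x axis), of each of the 10 genes (rows) from counts (circles, bars are 95% intervals), from counts with a GC offset (squares) and from deposited FPKM (triangles). Only SEL1L, at 0.35 from counts and -0.17 from FPKM, and XBP1, at 0.17 from counts and -0.01 with the GC offset, change their side of 0.

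Per length, the order of the genes was led in both groups by CALR, at 567.4 ± 13.6 FPKM with STAT3 shRNA and 610.3 ± 5.95 FPKM with Ctrl shRNA, and then PDIA4, at 109.7 ± 0.0354 FPKM with STAT3 shRNA and 89.4 ± 9.17 FPKM with Ctrl shRNA (SD, n = 2 each). HERPUD1, XBP1 and SDF2L1 came next, and their order differed. With STAT3 shRNA it was HERPUD1 at 88.8 ± 2.97, XBP1 at 75.4 ± 2.28 and SDF2L1 at 47.9 ± 2.88 FPKM. With Ctrl shRNA it was SDF2L1 at 77.3 ± 13.6, XBP1 at 67.0 ± 0.608 and HERPUD1 at 57.9 ± 3.72 FPKM, where the libraries of SDF2L1 overlapped those of PDIA4. The lower 5 genes also changed places. With STAT3 shRNA the order was ATF6 at 11.7 ± 0.12, EIF2AK3 at 11.5 ± 0.226, EDEM1 at 9.66 ± 0.184, SEL1L at 8.63 ± 0.573 and ERN1 at 5.80 ± 1.29 FPKM, and only ATF6 and EIF2AK3 overlapped. With Ctrl shRNA it was SEL1L at 9.82 ± 0.099, EDEM1 at 8.56 ± 0.764, ATF6 at 8.47 ± 0.707, EIF2AK3 at 5.97 ± 0.127 and ERN1 at 4.58 ± 0.841 FPKM, and only EDEM1 and ATF6 overlapped. These places are a description without a test.

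The deposited counts and FPKM give a length for each gene and library, the reads per unit of FPKM and depth, which stays the same across libraries where 1 fixed length was used. For SEL1L it was 6.89 and 7.25 kb in STAT3 shRNA libraries, against 4.65 and 4.41 kb in Ctrl shRNA libraries, a ratio of group means of 1.56. Among 13227 tested genes above 0.5 FPKM in all libraries, 1.88% had a ratio as high. For EIF2AK3 it was 3.22 and 3.19 kb with STAT3 shRNA, against 3.98 and 3.69 kb with Ctrl shRNA, a ratio of 0.836 that 4.67% of genes matched or fell below. ERN1 differed most within a group, with 4.73 and 3.99 kb in STAT3 shRNA libraries and 4.16 and 2.98 kb in Ctrl shRNA libraries. ATF6 stayed between 7.19 and 7.24 kb and PDIA4 between 2.47 and 2.54 kb in all 4 libraries. How the authors set these lengths is not given in the sources used here, and the part of transcript choice in the count and FPKM differences was not tested.

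**Figure D3:**
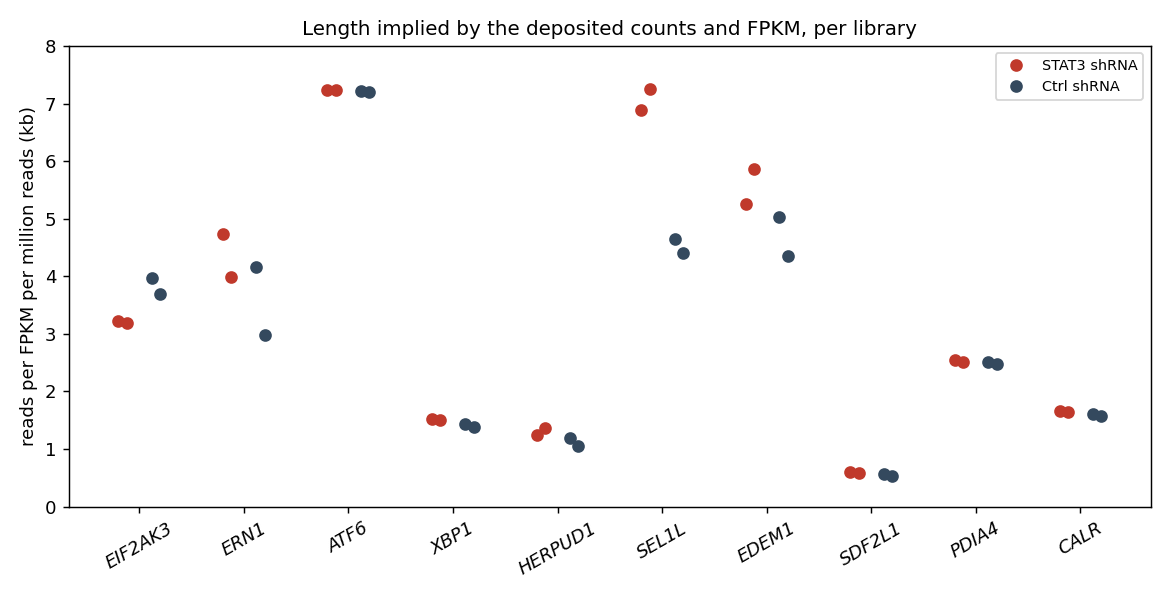
Length in kb implied by the deposited counts and FPKM (y axis) for each of the 10 genes (x axis); each point is a library, STAT3 shRNA left of Ctrl shRNA. SEL1L lies near 7 kb with STAT3 shRNA and under 5 kb with Ctrl shRNA, while ATF6, PDIA4 and CALR hardly move.

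Around the sensors, 6 of 15 tested relatives and partners passed (40.0%, beside 35.5% of all tested genes), 3 higher and 3 lower, with a median log2 fold change of 0.05. MAP3K5 encodes ASK1, the kinase that IRE1 engages through TRAF2. It had 4.35 and 4.40 CPM in STAT3 shRNA libraries and 10.8 and 10.3 CPM in Ctrl shRNA libraries (log2 fold change -1.27, adjusted p = 0.000823). TRAF2 itself (-0.33, adjusted p = 0.0239) and RTCB, the ligase that joins the XBP1 exons after IRE1 cuts (-0.31, adjusted p = 0.0227), also fell in counts. TRAF2 was at -0.07 (adjusted p = 0.467) after the GC correction and at -0.01 in FPKM, and passed in 9 of 15 alternative fits. The 3 genes that rose encode ATF6-like membrane factors of the CREB3 family. Of the same family, CREB3 did not pass (-0.16, adjusted p = 0.244) and CREB3L3 had too few reads to be tested. CREB3L4 had 11.9 and 13.3 CPM in STAT3 shRNA libraries and 7.58 and 7.999 CPM in Ctrl shRNA libraries (log2 fold change 0.69, adjusted p = 0.00941). CREB3L2 passed in counts (0.41, adjusted p = 0.0138) but was at -0.04 in FPKM. CREB3L1, with 23 and 18 reads in STAT3 shRNA libraries and 2 and 6 reads in Ctrl shRNA libraries, had the largest log2 fold change of the list (2.09 ± 0.64 SE, adjusted p = 0.0333), and passed in 8 of the 14 alternative fits that tested it. CREB3, CREB3L1, CREB3L3 and TRAF2 were picked after their values were seen. ATF6B, the close relative of ATF6, had 9.83 and 3.75 CPM with STAT3 shRNA and 7.48 and 6.43 CPM with Ctrl shRNA, so its groups overlapped.

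Downstream of PERK, 7 of 17 tested genes passed (41.2%), 4 higher and 3 lower, with a median log2 fold change of 0.00. ATF3, a stress-induced transcription factor, had 38.1 and 40.2 CPM in STAT3 shRNA libraries and 17.3 and 22.01 CPM in Ctrl shRNA libraries (log2 fold change 0.99, adjusted p = 0.000641). PPP1R15A encodes GADD34, which directs the dephosphorylation of eIF2α, and had 57.0 and 54.3 CPM with STAT3 shRNA, against 35.1 and 37.0 CPM with Ctrl shRNA (log2 fold change 0.63, adjusted p = 0.0013). BCL2L11, which encodes the pro-apoptotic BIM, also rose (1.21, adjusted p = 0.000419). TRIB3, an ATF4 and CHOP target, fell: it had 38.3 and 39.2 CPM in STAT3 shRNA libraries and 66.6 and 75.9 CPM in Ctrl shRNA libraries (log2 fold change -0.88, adjusted p = 0.000327). The others that fell were PPP1R15B, a relative of PPP1R15A (-0.51, adjusted p = 0.00702), and CEBPB (-0.58, adjusted p = 0.00187). PPP1R15B passed in 12 of 15 alternative fits and CEBPB in all 15. Both were picked after their values were seen. ATF4, the factor that PERK raises mainly through translation, had 150.5 and 143.2 CPM with STAT3 shRNA, against 157.1 and 166.0 CPM with Ctrl shRNA, and did not pass (-0.14, adjusted p = 0.225). DDIT3, which encodes CHOP, had 5.21 and 6.79 CPM with STAT3 shRNA, against 4.83 and 2.98 CPM with Ctrl shRNA, and did not pass either (0.61, adjusted p = 0.112). Without the first Ctrl shRNA library both passed, ATF4 at -0.21 (adjusted p = 0.026) and DDIT3 at 0.97 (adjusted p = 0.0091), while DDIT3 was at 0.30 (adjusted p = 0.368) without the second.

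Among ER chaperones and folding enzymes outside the 10 genes, 13 of 29 passed (44.8%), 6 higher and 7 lower, with a median log2 fold change of 0.04. HSPA5 encodes BiP, the chaperone that holds the sensors inactive. It had 575.7 and 584.1 CPM in STAT3 shRNA libraries and 589.9 and 540.3 CPM in Ctrl shRNA libraries, with overlapping groups. Its log2 fold change was 0.04, with a 95% interval of -0.15 to 0.22, and -0.06 after the GC correction. HSP90B1, the ER form of HSP90, had 997.0 and 981.6 CPM with STAT3 shRNA, against 911.0 and 847.0 CPM with Ctrl shRNA, and did not pass (0.17, adjusted p = 0.121). It was at -0.02 after the GC correction, and passed without the first Ctrl shRNA library (0.19, adjusted p = 0.0202). NUCB2, a calcium-binding protein, rose (0.89, adjusted p = 0.000238). FKBP2, a prolyl isomerase with 14.7 and 14.8 CPM in STAT3 shRNA libraries and 29.1 and 44.8 CPM in Ctrl shRNA libraries, fell (-1.32, adjusted p = 0.000936). SIL1, the nucleotide exchange factor of BiP (-0.73, adjusted p = 0.000943), and ERP29 (-0.53, adjusted p = 0.00337) fell as well. DNAJB9, a BiP co-chaperone often read as an IRE1 and XBP1 output, had 13.3 and 14.0 CPM with STAT3 shRNA and 9.17 and 10.3 CPM with Ctrl shRNA (0.49, adjusted p = 0.0313), a call that held in 7 of 15 alternative fits. THAP5 overlaps DNAJB9 on the opposite strand, with 812 and 596 reads with STAT3 shRNA and 442 and 400 with Ctrl shRNA. PNPLA8 also overlaps it, with 922 and 709 reads with STAT3 shRNA and 729 and 679 with Ctrl shRNA. The part of these reads in the DNAJB9 difference was not tested.

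Of other ERAD genes, 8 of 29 tested passed (27.6%), 2 higher and 6 lower, with a median log2 fold change of -0.04. UBXN4, an ER recruiter of the VCP segregase, had 146.0 and 149.2 CPM in STAT3 shRNA libraries and 113.7 and 110.7 CPM in Ctrl shRNA libraries (log2 fold change 0.40, adjusted p = 0.00544). ERLEC1, a lectin of the HRD1 complex, was the other that rose (0.37, adjusted p = 0.0118). MAN1B1, the mannosidase that marks glycoproteins for disposal (-0.47, adjusted p = 0.00267), and UBE2J2, an ER ubiquitin-conjugating enzyme (-0.53, adjusted p = 0.00336), fell. SYVN1, which encodes HRD1, the ligase that SEL1L serves, had 49.4 and 48.1 CPM with STAT3 shRNA and 48.9 and 46.7 CPM with Ctrl shRNA, and its groups overlapped (0.03, adjusted p = 0.838).

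In the translocation machinery, which brings new proteins into the ER, 6 of 22 tested genes passed (27.3%), 3 higher and 3 lower, with a median log2 fold change of 0.04. SEC61B, a subunit of the channel, had 45.5 and 50.4 CPM in STAT3 shRNA libraries and 70.3 and 84.5 CPM in Ctrl shRNA libraries (log2 fold change -0.69, adjusted p = 0.00187). SSR4 (-0.49, adjusted p = 0.00657) and the signal peptidase subunit SEC11A (-0.27, adjusted p = 0.0276) also fell, and SSR1 rose (0.32, adjusted p = 0.0323). SSR1 and SSR4 are subunits of the same translocon-associated complex. Each of the 5 lists held genes that passed in both directions. On the FPKM scale CREB3L1, CREB3L2, TRAF2, RTCB, BCL2L11, PPP1R15B, DNAJB9, UBE2J2, UBXN4, SSR4, SEC11A and SSR1 did not pass. After the GC correction TRAF2, DNAJB9, ERLEC1 and SSR1 did not. With at least 1 of the STAT3 shRNA libraries left out in turn, the calls of CREB3L2, CREB3L4, RTCB, DNAJB9, MAN1B1, UBE2J2, UBXN4, ERLEC1, SSR4, SEC11A and SSR1 were lost. That list does not cover CREB3L1, TRAF2, PPP1R15B and CEBPB. Reads of BCL2L11, CREB3L4, DDIT3, DNAJB9, ERLEC1, SIL1, SSR4 and SYVN1 are less certain, because genes that overlap them held at least 20% as many reads. These shares ran from 41.5% (ASB3 over ERLEC1) to 3322% (MARS over DDIT3), with 2169% for JTB over CREB3L4. FAU, with 512% as many reads as SYVN1, lies on the same strand as SYVN1. The other overlapping genes lie on the opposite strand, and the use of strand is unknown.

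**Figure D4:**
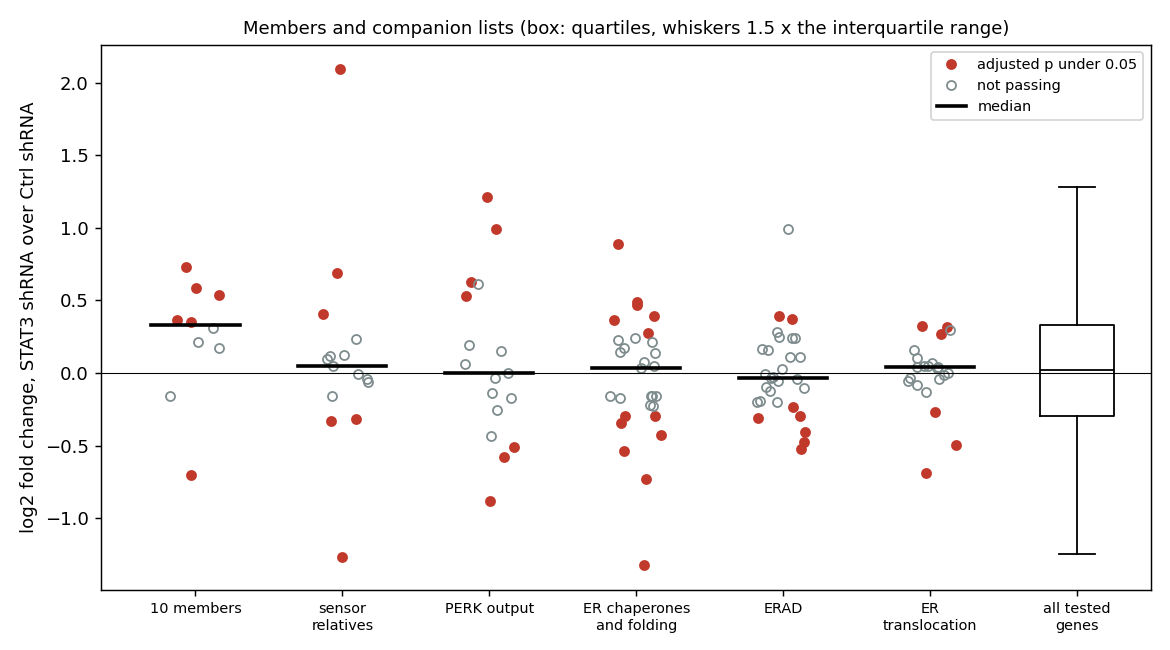
log2 fold change, STAT3 shRNA over Ctrl shRNA (y axis), of the 10 genes, the 5 related lists and all tested genes (x axis); filled points passed an adjusted p of 0.05, bars are medians, and the box shows quartiles of all tested genes. In counts without the GC correction, the 10 genes have a median of 0.33, while the medians of the 5 lists lie between -0.04 and 0.05. Genes and lists were chosen with earlier results of these data known, so this contrast is a description.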

How the data were processed

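The series holds 4 RNA-seq libraries, 2 per group. Raw counts of reads and FPKM values, 1 row per gene, were deposited by the authors. The sources used here do not give the aligner, counter, genome build, annotation, strand use or FPKM lengths. Sample titles gave the groups; 2 columns named "Si" were inferred to be STAT3 shRNA.

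The count test was the two-sided quasi-likelihood test of edgeR 4.0.16 (R 4.3.3; TMM scaling, filterByExpr, no covariate, Benjamini-Hochberg over 15199 genes, threshold 0.05). SEs and 95% intervals come from the quasi-likelihood F. FPKM were tested with limma 3.58.1 (limma-trend) on log2(FPKM + 1), which understates changes of low genes. The edgeR test was tried on simulated counts with 1 common spread for all genes. It called 24 of 50 genes set to a 1.5-fold change, 46 of 50 at 2-fold and 2 of 14999 unchanged genes. A gene that did not pass may therefore still have changed by a fold of this size. Positions and GC content come from GENCODE 29 by Ensembl ID without version, since the authors' annotation is unknown. The GC correction is a lowess offset per library (span 0.3). No member had a near-identical copy (blastn 2.17.0, at least 95% identity over 50% of the transcript).

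Members and lists were chosen with earlier results of these data known. Named genes were STAT3, the 10 members, the 4 smallest p-values of each related list and the standard readouts HSPA5, HSP90B1, ATF4, DDIT3, DNAJB9, ATF6B and SYVN1; ERN2 was not analysed here. The 15 alternative fits were RLE and upper-quartile scaling, no filter, at least 5 CPM, the replicate block, the GC offset with and without it, DESeq2 1.42.0, the edgeR exact test, FPKM with pseudocounts of 1 and 0.1, and each library left out. Read floors cover counting error only.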

Additional observations from a re-analysis of the deposited data

How the results depend on the processing

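EIF2AK3, HERPUD1 and SDF2L1 kept their direction and their call under all 15 alternative fits. The 6 calls among the 10 genes became 3 with FPKM at either pseudocount and 3 to 9 with 1 library left out (3 without STAT3 shRNA replicate 2). All-gene calls (5396) became 2494 and 2535 with FPKM at pseudocounts of 0.1 and 1, 2897 at a threshold of 0.01, and 2527 to 7291 with 1 library left out (2527 and 2567 without STAT3 shRNA replicates 1 and 2). With FPKM, 2 sensor relatives, 4 genes downstream of PERK, 7 chaperones, 2 ERAD genes and 3 translocation genes passed at either pseudocount. At 0.01, 2 sensor relatives, 7 chaperones, 3 ERAD genes and 2 translocation genes passed. With 1 library left out, the counts were 1 to 7 sensor relatives, 5 to 11 genes downstream of PERK, 4 to 19 chaperones, 0 to 13 ERAD genes (0 by edgeR without STAT3 shRNA replicate 1, where 6 had an unadjusted p under 0.05) and 1 to 8 translocation genes. Calls over all genes, given above, moved in the same fits, so the counts of each list are to be read beside them. Signs turned for XBP1 with the GC offset (-0.009 with the block, -0.010 without), SEL1L in FPKM (-0.185 and -0.169), CREB3L2 in FPKM (-0.042 and -0.041), ATF4 with the GC offset (0.023 with the block, 0.024 without), HSPA5 with it (-0.055) and HSP90B1 with it (-0.016). ATF6B had 0.163 with the GC offset, 0.037 with the offset and block, 0.016 at 5 CPM, 0.036 with upper-quartile scaling and -0.889 to 0.498 with 1 library left out. HSPA5 had -0.029 to 0.069 and SYVN1 -0.010 to 0.046 with 1 library left out. The cause of these shifts was not tested. Across genes, log2 fold change and transcript GC content had a Spearman rho of -0.339 (14545 genes, a description); the same measure between the 2 Ctrl shRNA libraries was 0.446. The replicate block gave 5447 calls over all genes and 6 among the 10. Deviations of same-numbered libraries correlated at -0.0242 over genes. With 2 libraries per group this value cannot settle whether the numbers pair them. With 2 libraries per group, EDEM1, PDIA4, XBP1 and CALR have intervals that reach from near 0 to moderate changes.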

Other observations

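Over all promoters searched, 44 genes held an ERSE or ERSE-II match, and 30 of them were tested. With STAT3 shRNA 7 rose, 6 fell and 17 did not pass, so that 43.3% were called, beside 35.5% of all tested genes. Their median log2 fold change was 0.04; this list was chosen after the data were seen and is a description. It holds HERPUD1 and SDF2L1, which moved in opposite directions with the same element. Among its genes of ER folding CANX (0.47, adjusted p = 0.00675), a lectin partner of calreticulin, and PDIA6 (0.36, adjusted p = 0.00682), a disulfide isomerase, rose, while SERP1, a protein of the translocon, fell (-0.42, adjusted p = 0.00377; 0.0587 in FPKM). CANX passed in 14, PDIA6 in 13 and SERP1 in 11 of the 15 alternative fits. HSP90B1 (0.17), ERO1B (0.08), HYOU1 (0.05), HSPA5 (0.04), CALR (-0.16) and CRELD2 (-0.17) did not pass.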
